A study of Mus musculus with 2 samples.

Results

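Small leucine-rich and large matrix proteoglycans were followed in single cells of mouse submandibular gland stroma after duct ligation. The 9 genes, among 20140 gene rows in the tables, were chosen by name: Dcn, Bgn and Aspn (class I leucine-rich), Lum, Fmod, Prelp and Omd (class II), Ogn (class III) and Vcan, a large proteoglycan. Each gene had 1 row of its own and was listed above 0 in both libraries. Female C57BL6/J mice aged 14 weeks were operated on, and glands were taken 14 days later. In the ligated group the main submandibular and sublingual ducts were closed with a metal clip, and in the mock group they were exposed and not clipped. Each group is 1 library made on the 10X Genomics droplet system from 2 pooled glands, and whether these came from separate mice is not given in the sources used here. Cells carrying EpCAM, an epithelial surface protein, or Ter119, a surface protein of red blood cells, had been depleted with beads from both, so shares of cells describe the cells left after depletion. With 1 library per group no difference below has a replicate check or a test, and each describes these 2 libraries.

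Small leucine-rich proteoglycans are secreted proteins with a curved leucine-rich repeat core, and many carry glycosaminoglycan chains. They bind fibrillar collagen and set the width and spacing of its fibrils, and decorin and biglycan also bind growth factors such as TGF-beta. Versican, the product of Vcan, binds hyaluronan through one end and carries many chondroitin sulfate chains. In salivary gland these genes are known mainly from the fibroblasts of the connective tissue around ducts and lobules.

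The deposited values are means over the cells of a cluster, in UMIs of a gene (unique molecular identifiers, which count captured transcripts) per 10000 UMIs of the cell. They cover 12 clusters of all cells and 5 clusters of a stromal subset that the authors named for the PDGF receptors and Gli1; how its cells were picked is not given in the sources used here. Recovered from the means, the mock library had 4199 cells and the ligated library 11406. Median depths were 6572 and 6490 UMIs per cell, over the 623 mock and 2264 ligated depths that could be recovered. These came unevenly from the clusters, with 27 depths for the 2363 mock cells of cluster 0 and 102 for the 201 of cluster 7. Cluster 11 gave 28 values for 22 mock cells, so not every value is the depth of a separate cell. The worth of a UMI at median depth, used below, is therefore approximate. The 2 medians therefore do not compare depth between the whole libraries. Cluster 3 is called fibroblast-like, because 11 of 12 fibroblast markers, none of them among the 9 genes, had their highest level there. It held 188 mock cells (4.48% of the library, exact 95% interval 3.87 to 5.15%) and 1149 ligated cells (10.1%, 9.53 to 10.6%); these intervals cover counting error only. Cluster 6 is called mural-like, since 11 of 12 markers of pericytes and smooth muscle peaked there, and it held 161 mock and 420 ligated cells. Differences are given as log2((ligated + 0.1)/(mock + 0.1)). A gene is counted as higher or lower where its higher value is at least 0.5 and this difference is at least 1 in size. Shares over all genes include genes listed above 0 in 1 library only (3834 in the tables) where they reach 0.5. Each of those is past the rule by its absence from the other library, which raises these shares. The 9 genes and the list counts below hold none of them. Only clusters for which both libraries have 50 or more cells were compared. The log2 differences of genes near or below 0.1 are understated by the added 0.1.

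The genes lie in a few neighbourhoods of the mouse genome (mm10, GENCODE annotation). Aspn (chr13:49544443-49567565), Omd (chr13:49582462-49592822) and Ogn (chr13:49608046-49624501) follow one another on the plus strand, with 14896 bases between Aspn and Omd and 15223 between Omd and Ogn. All of them lie inside the span of Cenpp on the opposite strand, whose exons share 7 bases with exons of Aspn and 0 with those of Omd and Ogn. Dcn (chr10:97479609-97518143, plus strand) is followed by Lum (chr10:97565128-97572703, plus strand) after 46984 bases. Prelp (chr1:133910304-133921414, minus strand) and Fmod (chr1:134037254-134048277, plus strand) are 115839 bases apart. Exons of Prelp share 350 bases with the antisense gene Gm15851, so its counts are uncertain where strand was not used in counting, which is not given in the sources used here. Bgn lies at chrX:73483602-73495933 on the plus strand and Vcan at chr13:89655312-89742509 on the minus strand. The 250 bases before the RefSeq start (GRCm38.p6) are shown for the 3 neighbours on chromosome 13 and for Fmod and Bgn. They are written 5′ to 3′ on the gene's strand, and capitals mark TATAAA on either strand (TTTATA on the other one).
Aspn: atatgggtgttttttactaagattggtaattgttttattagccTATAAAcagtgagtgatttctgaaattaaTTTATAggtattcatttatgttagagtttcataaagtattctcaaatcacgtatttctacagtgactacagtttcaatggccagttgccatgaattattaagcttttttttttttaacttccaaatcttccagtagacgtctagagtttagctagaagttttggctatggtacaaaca
Omd: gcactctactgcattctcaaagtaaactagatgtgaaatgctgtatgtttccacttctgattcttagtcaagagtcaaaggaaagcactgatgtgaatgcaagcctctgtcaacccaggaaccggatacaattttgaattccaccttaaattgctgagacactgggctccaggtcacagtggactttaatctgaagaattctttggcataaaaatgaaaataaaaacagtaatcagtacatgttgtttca
Ogn: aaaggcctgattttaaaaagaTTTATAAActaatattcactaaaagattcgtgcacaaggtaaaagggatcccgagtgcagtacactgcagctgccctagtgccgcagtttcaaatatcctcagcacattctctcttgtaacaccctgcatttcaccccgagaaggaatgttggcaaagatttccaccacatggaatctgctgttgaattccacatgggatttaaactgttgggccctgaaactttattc
Fmod: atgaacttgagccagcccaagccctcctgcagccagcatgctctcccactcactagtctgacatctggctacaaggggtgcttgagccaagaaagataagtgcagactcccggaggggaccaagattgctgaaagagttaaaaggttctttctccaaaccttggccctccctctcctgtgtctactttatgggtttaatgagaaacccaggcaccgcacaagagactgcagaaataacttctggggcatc
Bgn: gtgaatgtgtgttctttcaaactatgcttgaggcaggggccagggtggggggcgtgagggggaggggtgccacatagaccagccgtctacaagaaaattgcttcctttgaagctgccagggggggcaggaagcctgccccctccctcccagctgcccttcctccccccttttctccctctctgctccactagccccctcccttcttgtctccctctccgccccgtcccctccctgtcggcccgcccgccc
These windows are chr13:49544193-49544442 (Aspn), chr13:49582212-49582461 (Omd), chr13:49607765-49608014 (Ogn), chr1:134037004-134037253 (Fmod) and chrX:73483351-73483600 (Bgn), all on the plus strand. A window was found for 7 of the 9 genes, not for Dcn or Lum, and those of Prelp and Vcan are not shown. The letters TATAAA occurred in the Aspn window at 207 to 202 bases before the start, and on the opposite strand at 178 to 173. In the Ogn window they occurred at 227 to 222 bases and, overlapping on the opposite strand, at 229 to 224. None of the other 5 windows held TATAAA, which 12.4% of 32851 windows of the same length held. No window of the 7 held TGANTCA (the AP-1 motif, N being any base, in 6.75% of windows) or a CArG box (in 1.47%), searched on both strands. The G and C content ran from 30% in the Aspn window to 64.4% in the Bgn window, with 38.4% for Omd, 42% for Ogn and 51.2% for Fmod.

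Across the 12 clusters, 7 of the 9 genes had their highest level in the fibroblast-like cluster in both libraries. Aspn peaked in the mural-like cluster and Vcan in the Schwann-like cluster 9 (glial cells of nerves, 17 mock and 271 ligated cells). Counting a library's summed expression as cluster mean times cells, the fibroblast-like cluster held 98.5% of Dcn in the mock and 91.4% in the ligated library. Its share of Omd was 97.1 and 96.1%, and its share of Lum was 96.9 and 87.3%. For Bgn the shares were 78.8 and 86.0%, for Prelp 77.8 and 86.1%, and for Ogn 73.8 and 92.2%. Fmod had 59.1 and 88.4%, and Vcan stood at 62.7 and 54.5%. Of Aspn the cluster held 15.0% in the mock and 49.2% in the ligated library, while the mural-like cluster held 84.1 and 42.8%. These shares include the larger part of the ligated library that was fibroblast-like.

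**Figure D1:**
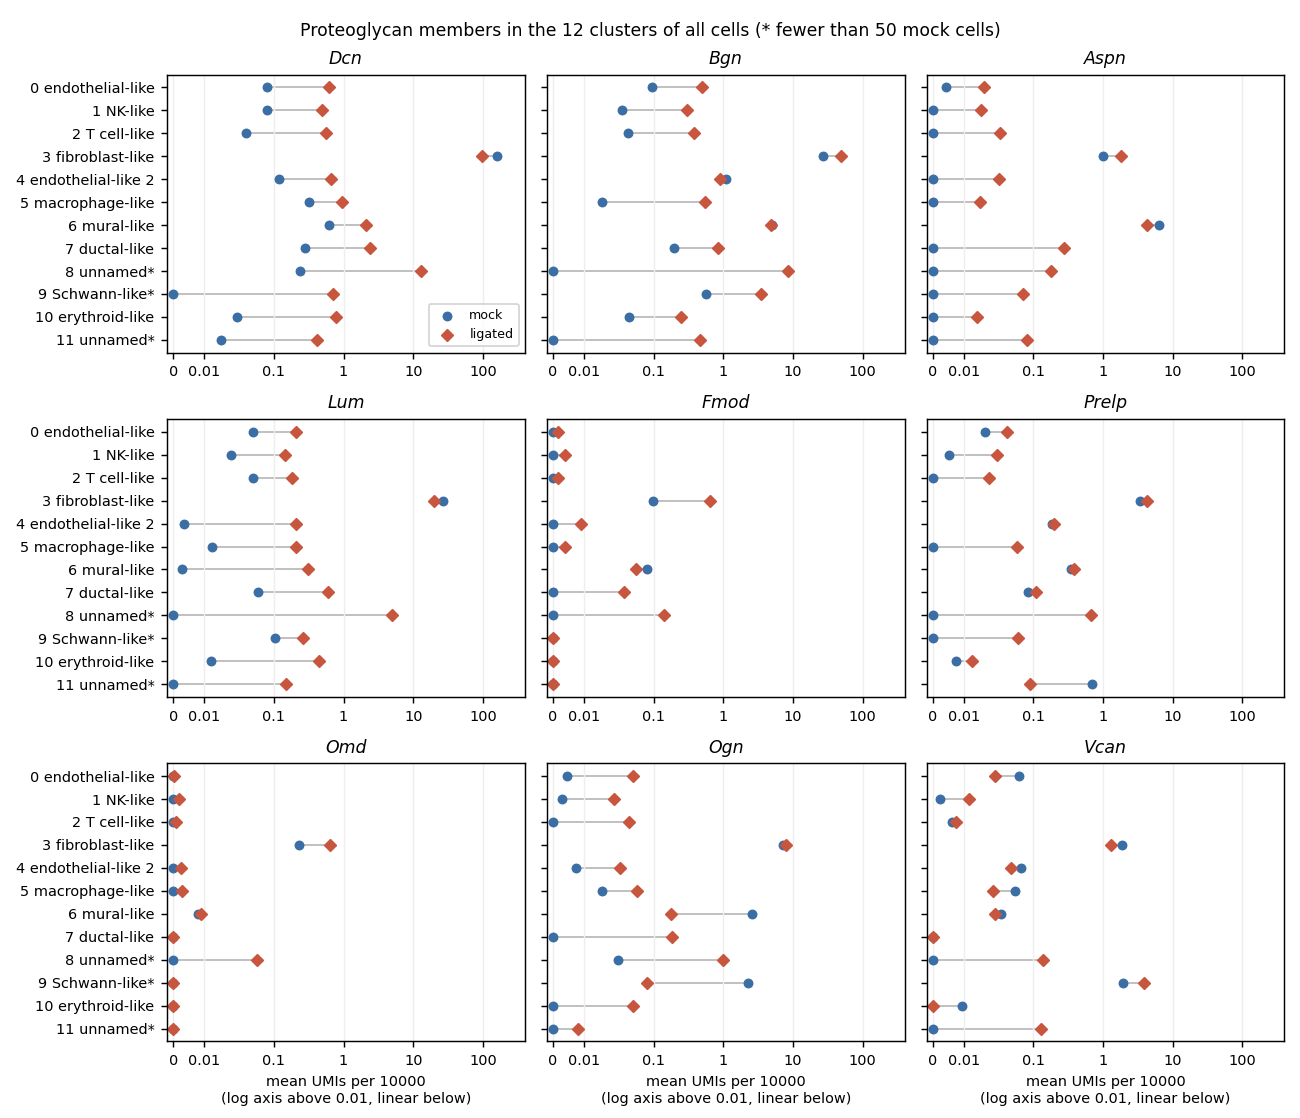
Mean UMIs per 10000 (x axis, logarithmic above 0.01 and linear below) of each of the 9 genes in the 12 clusters of all cells (y axis), with blue circles for the mock and red diamonds for the ligated library. Most genes stand far to the right in fibroblast-like cluster 3, Aspn is highest in mural-like cluster 6, and Vcan is highest in Schwann-like cluster 9.

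In the fibroblast-like cluster the class I genes had differences of opposite sign. Dcn, whose product decorin coats collagen fibrils, had a mean of 158 UMIs per 10000 in the mock and 96.7 in the ligated library. The ligated value was the lower one, with a log2 difference of -0.70, short of the size rule. Bgn, encoding biglycan, the closest relative of decorin, had 26.65 in the mock and 49.5 in the ligated library. That is 1.86 times the mock value (log2 difference 0.89), also short of the rule and in the direction opposite to Dcn. Aspn, encoding asporin, a relative with a stretch of aspartate residues and no typical attachment site for chains, had 0.981 in the mock and 1.82 in the ligated library (log2 difference 0.83). In the matching cluster 0 of the stromal subset, with 167 mock and 949 ligated cells, Dcn had 162 and 101 (-0.68) and Bgn 27.8 and 52.3 (0.91). Aspn had 0.686 and 1.82 there, a log2 difference of 1.29 that is past the rule.

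Among the class II genes, 2 were past the rule in the fibroblast-like cluster, and both were low genes. Fmod encodes fibromodulin, a keratan sulfate proteoglycan that binds collagen and takes part in its crosslinking by lysyl oxidase. Its mean was 0.0992 in the mock and 0.653 in the ligated library, which is 6.59 times the mock value (log2 difference 1.92). Omd encodes osteomodulin, a keratan sulfate proteoglycan best known from bone and tooth. It had 0.232 in the mock and 0.645 in the ligated library, a log2 difference of 1.16. A single UMI in a cell of median depth is worth 0.00415 in the mock and 0.000611 in the ligated mean of this cluster. Both mock values therefore stand above the level of 3 such UMIs, 0.0124. The median depths used rest on 37 mock and 232 ligated recovered depths. With 1 added in place of 0.1 the differences were 0.59 for Fmod and 0.42 for Omd, under the rule. Lum encodes lumican, which shares a collagen binding site with fibromodulin. Its mean was 26.4 in the mock and 19.8 in the ligated library (log2 difference -0.41), the lower value again being the ligated one. Prelp, whose product links basement membrane to collagen through its basic end, had 3.40 and 4.25 (0.31). In subset cluster 0 the values were 0.112 and 0.692 for Fmod (1.90), 0.201 and 0.669 for Omd (1.35), 28.4 and 20.7 for Lum (-0.45), and 3.46 and 4.54 for Prelp (0.38).

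The class III gene Ogn and the large proteoglycan gene Vcan differed little in the fibroblast-like cluster. Ogn, which encodes osteoglycin (mimecan), had 7.10 in the mock and 7.96 in the ligated library (log2 difference 0.16). Vcan had 1.86 in the mock and 1.32 in the ligated library (-0.47). In subset cluster 0 Ogn had 6.40 and 8.23 (0.36) and Vcan 1.92 and 1.33 (-0.50). The 3 neighbours on chromosome 13 therefore had log2 differences of 0.83 (Aspn), 1.16 (Omd) and 0.16 (Ogn) in the same cells. The neighbours Dcn and Lum had -0.70 and -0.41, both lower in the ligated library.

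Counted together, 2 of the 9 genes (Fmod and Omd) were higher past the rule in the fibroblast-like cluster and 0 were lower. All 9 reached the minimum of 0.5. Over the 3762 genes reaching it in this cluster, 4.47% were higher and 5.32% lower, and the median log2 difference was -0.06 against 0.31 for the 9 genes. In subset cluster 0 the count was 3 higher (Aspn, Fmod and Omd) and 0 lower, where 4.75% of genes were higher and 5.31% lower. Without regard to the rule, the ligated value was the higher one for 6 of the 9 genes and the lower one for Dcn, Lum and Vcan, in both clusterings. The summed level of the 9 genes went from 224 to 183 UMIs per 10000, and without Dcn from 66.7 to 86.0. The 12 fibroblast markers, none at 0 in either library, summed to 187 in the mock and 190 in the ligated cells of this cluster, but single markers differed. Dpt had 8.77 in the mock and 1.15 in the ligated cells (-2.83) and Cd34 7.47 and 1.38 (-2.36). Clec3b (8.71 and 3.8, -1.18) and Pi16 (5.22 and 2.42, -1.08) were lower past the rule too, and Lox was higher (1.41 and 3.39, 1.21). The part of these marker differences in those of the 9 genes was not tested. Markers of other cell types in it stood at a median of 3.13% of their library mean in the mock and 11.5% in the ligated library. Subtracting that share of the library profile left differences of -0.72 for Dcn, 0.88 for Bgn, 1.90 for Fmod and 1.15 for Omd.

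**Figure D2:**
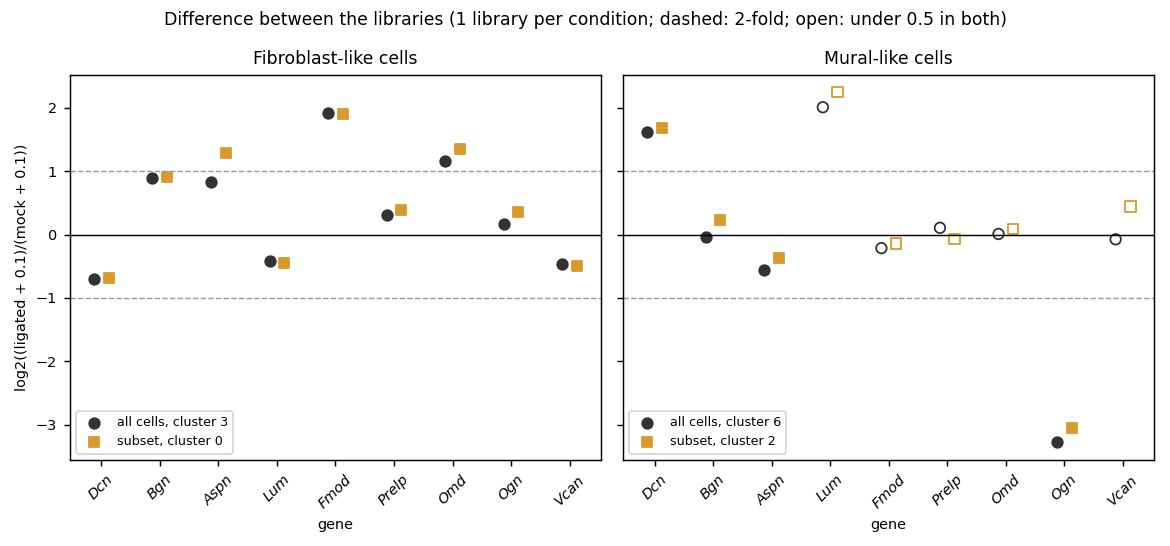
Log2 difference between the ligated and the mock library (y axis, 0.1 added to both values) for the 9 genes in fibroblast-like cells (left) and mural-like cells (right), with circles for the clusters of all cells and squares for the stromal subset. Dashed lines mark the size rule and open symbols mark genes under 0.5 in both libraries; Fmod and Omd lie above the upper line in fibroblast-like cells, and Ogn lies below the lower line in mural-like cells.

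The mural-like cluster had another set of these genes. Aspn was at 6.41 in the mock and 4.32 in the ligated library, the highest of all 12 clusters in each, with a log2 difference of -0.56. Ogn had 2.61 in the mock and 0.180 in the ligated library, the largest difference among the 4 of the 9 genes that reached the minimum there (-3.28). The mock Ogn value was 36.7% of the level in mock fibroblast-like cells, beside 0.395% for Dcn and a median of 4.64% (0 to 31.9%) for the 11 fibroblast markers without Cd34. The ligated Ogn value was 2.25% of the fibroblast-like level, beside 2.18% for Dcn and a marker median of 2.57% (0.825 to 34.2%). Bgn stood at 4.95 and 4.83 (-0.03). Dcn was the only gene of the 9 higher past the rule, with 0.623 in the mock and 2.11 in the ligated library (1.61).

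The remaining genes were low in the mural-like cluster. Prelp had 0.349 and 0.383, Lum 0.00289 and 0.313, Fmod 0.0802 and 0.0553, Vcan 0.0347 and 0.0278, and Omd 0.00814 and 0.00882. Of the 9 genes, 4 reached the minimum, 1 was higher (Dcn) and 1 was lower (Ogn), beside 4.92% of all genes tested there that were higher and 4.50% that were lower. In subset cluster 2, the mural-like cells of the subset (128 mock and 274 ligated cells), Ogn had 2.75 and 0.243 (-3.06) and Aspn 7.40 and 5.68 (-0.38). Dcn had 0.311 and 1.22 there (1.69), and Bgn 5.27 and 6.22 (0.23). The same pair was past the rule in it, 1 higher and 1 lower, with 4.26% of genes higher and 4.26% lower.

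Markers of several cell types moved between the libraries in the mural-like cluster. The summed mural markers were 230 in the mock and 144 in the ligated cells. The 9 ductal markers summed to 1.70 and 7.05, the 8 natural killer markers to 0.0801 and 4.90, and the 12 fibroblast markers to 15.7 and 12.7, with Dpt at 0 in the mock. Over 111 markers of other cell types, the median level in this cluster was 1.28% of the library mean in the mock and 21.2% in the ligated library. After that share of the library profile was subtracted, the ligated values of Dcn and Ogn were both 0 and the Dcn difference reversed to -2.66. Since it takes more from the ligated than from the mock value, this subtraction says nothing on whether Ogn is lower. In subset cluster 2, where that share was 0% in the mock and 5.43% in the ligated library, Dcn remained the higher one after it (0.311 and 0.643, 0.85). The part of these markers in the Ogn difference was not tested.

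Within the subset, cluster 4 was a second fibroblast-like cluster of 10 mock and 17 ligated cells, where 8 of 12 fibroblast markers were highest. With so few cells the libraries were not compared in it, and its means over both libraries are set beside those of subset cluster 0. Dcn had 98.4 in cluster 4 and 110 in cluster 0, and Omd 0.666 and 0.599. These means weight the libraries unequally, since cluster 0 held 167 mock and 949 ligated cells. Within the mock library Dcn had 97.6 in cluster 4 and 162 in cluster 0, and Omd 0.695 and 0.201. Within the ligated library Dcn had 98.9 and 101, and Omd 0.649 and 0.669. Bgn was low in cluster 4, at 3.0 against 48.6, and Fmod was listed at 0 against 0.605. Aspn was at 4.79 against 1.65 and Ogn at 15.6 against 7.96, both with the higher value in cluster 4. Lum had 10.1 against 21.8, Prelp 1.71 against 4.38 and Vcan 1.25 against 1.42. A UMI at median depth is worth about 0.121 in the mock and 0.0553 in the ligated mean of cluster 4. The Omd means over both libraries are therefore not told apart between the 2 clusters.

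Vcan was highest in the Schwann-like cluster, at 1.95 in the mock and 3.82 in the ligated library. With 17 mock cells no difference was called there, and 1 UMI in a cell of median depth is worth 0.126 in that mock mean. The cluster held 5.93% of the summed Vcan of the mock and 37.2% of that of the ligated library. Bgn had 0.562 and 3.43 in these cells. Ogn had 2.25 in the mock and 0.0810 in the ligated cells, which were likewise not compared. Fmod and Omd were listed at 0 in both libraries of this cluster, and Dcn was listed at 0 in the mock and at 0.707 in the ligated cells. Fibroblast markers summed to 30.6 in the mock and 16.6 in the ligated cells. Most of this was Col3a1 (14.4 and 6.97), Col1a2 (8.19 and 4.18) and Col1a1 (5.33 and 2.93). Pdgfra, Pi16, Clec3b and Lox were at 0 in the mock, where 17 cells leave a 0 uncertain.

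In the endothelial, lymphocyte, macrophage, ductal and erythroid clusters Dcn and Lum were low in the mock and had the higher value in the ligated library throughout. Bgn did so too except in the second endothelial-like cluster, while Vcan had the lower value in the ligated library in 4 of these 7 clusters, all at low levels. Dcn had 0.0796 in the mock and 0.623 in the ligated endothelial-like cluster 0, the only one of the 9 reaching 0.5 there, and it was higher past the rule, as were 3.92% of all genes. In the natural killer-like cluster 1 Dcn had 0.0804 and 0.499, none of the 9 reached the minimum, and 3.0% of genes were higher. In the T cell-like cluster 2 Dcn had 0.0399 and 0.554 and was past the rule, where 3.08% of genes were. The second endothelial-like cluster 4 had 0.120 and 0.658, past the rule beside 3.29% of genes. Bgn was at 1.09 in the mock and 0.896 in the ligated cells of that cluster, above its level in the other endothelial-like cluster (0.0946 and 0.490).

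Both Dcn (0.317 and 0.960) and Bgn (0.0182 and 0.555) were higher past the rule in macrophage-like cluster 5, where 4.15% of genes were. The ductal-like cluster 7 had 3 such genes, Dcn (0.279 and 2.38), Bgn (0.199 and 0.825) and Lum (0.0595 and 0.608), beside 14.8% of all genes. In the erythroid-like cluster 10 Dcn had 0.0293 and 0.773, where 23.0% of genes were higher and the median gene differed by 0.56. No gene of the 9 was lower past the rule in any of these clusters. After the share of the library profile was subtracted, Dcn was 0 in both libraries in clusters 0, 1, 2, 4, 5 and 10. Bgn was then 0 in both in cluster 5. In the ductal-like cluster Dcn was then at 0 and 0.466, Bgn at 0.119 and 0, and Lum at 0 and 0.196. The share was larger in the ligated library in each of these clusters.

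Fibroblast markers moved in the same direction in the same clusters. The median of 11 markers (leaving out Cd34, which endothelial cells also express), as a percent of the level in the fibroblast-like cluster of the same library, was 0.108 in the mock and 0.830 in the ligated endothelial-like cluster 0. For the 9 genes the medians there were 0.191 and 0.976%. The markers went from 0.0625 to 0.628% in the natural killer-like, from 0.0794 to 0.608% in the T cell-like and from 0.156 to 0.946% in the second endothelial-like cluster. Macrophage-like cells had marker medians of 0.0377 and 1.11%. In the ductal-like cluster the markers went from 0.347 to 2.98% and in the erythroid-like from 0 to 0.498%. The medians of the 9 genes in the ligated library were 0.617, 0.572, 1.37, 0.992, 2.46 and 0.494% in those 6 clusters. In the mock library, between 0 and 4 of the 11 markers were listed at 0 in the 6 clusters other than the erythroid-like one, which had 7. In the ligated library 0 markers were at 0 except in the ductal-like (Lox) and erythroid-like (Dpt and Lox) clusters. Single genes departed from the medians. In the second endothelial-like cluster Prelp (0.186 and 0.200) stood at 5.47 and 4.70%, and Bgn at 4.08 and 1.81%. The median of the 9 genes there was 0.0762% in the mock and 1.37% in the ligated library. The markers there ranged from 0 to 12.5% and from 0.158 to 8.17%. Whether levels at these shares are expression by these cells was not tested. The unnamed cluster 8 (25 mock and 264 ligated cells) was not compared; its 12 fibroblast markers summed to 1.07 in the mock and 36.4 in the ligated library, beside 0.236 and 12.9 for Dcn.

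**Figure D3:**
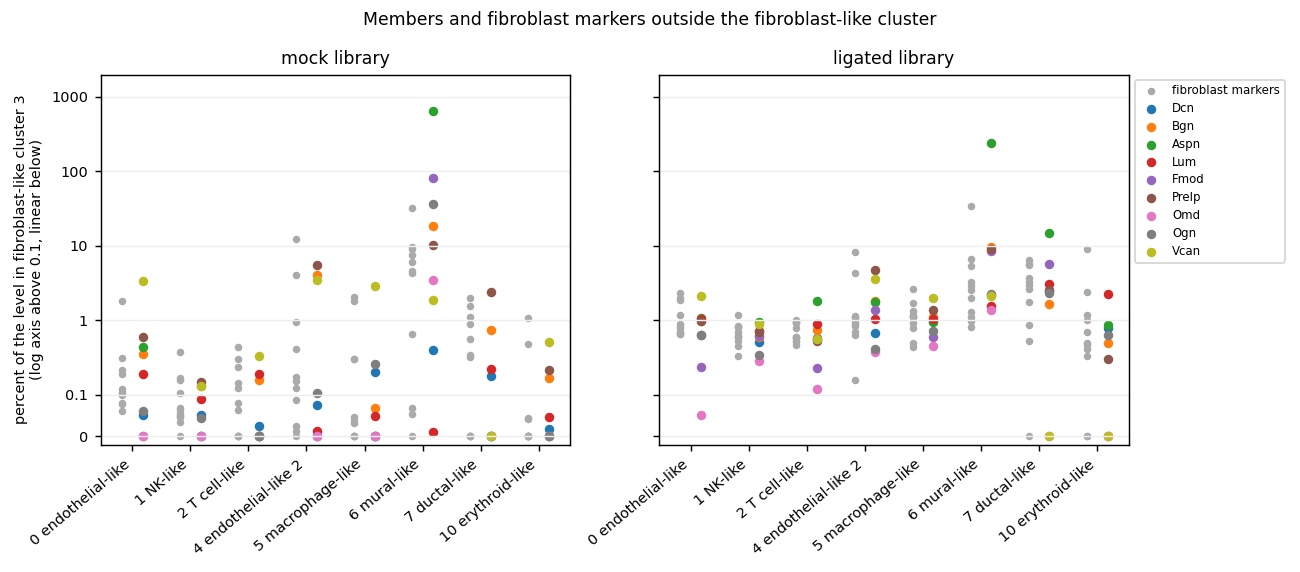
Level of the 9 genes (coloured points) and of 11 fibroblast markers (grey points) in 8 clusters, as percent of the level in fibroblast-like cluster 3 of the same library (y axis, logarithmic above 0.1 and linear below), for the mock (left) and ligated library (right). In the ligated library most genes and markers sit near 1% outside the mural-like cluster, and Aspn exceeds 100% in the mural-like cluster of both libraries.

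Endothelial-like cells of the stromal subset (cluster 3, 82 mock and 260 ligated cells) had higher values of the matrix genes. Dcn was at 9.01 in the mock and 20.9 in the ligated library, Bgn at 1.89 and 12.1, and Lum at 1.33 and 4.48. Prelp had 0.250 and 0.991, and Ogn 0.245 and 1.68. These 5 of the 6 genes reaching the minimum were higher past the rule, beside 6.29% of all genes, and Aspn (0.455 and 0.772) was not. The 12 fibroblast markers summed to 17.4 in the mock and 58.5 in the ligated cells, with 0 at 0 in either, and 14 of 18 partner collagen and crosslinking genes reaching the minimum were higher as well. All 11 endothelial markers were highest in this subset cluster, summing to 184 in the mock and 117 in the ligated cells. The part of fibroblast RNA or of mixed droplets in these values was not tested.

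Over whole libraries, the mean of every one of the 9 genes was higher in the ligated library. Dcn had 7.16 in the mock and 10.7 in the ligated library (log2 difference 0.57), and Lum 1.22 and 2.29 (0.86). Bgn had 1.51 and 5.80 (1.87), the only one of the 9 past the rule, while 4 reached the minimum. Over all genes, 6.38% were higher and 6.12% lower by the library means. Ogn had 0.431 and 0.870 (0.87), Prelp 0.196 and 0.498 (1.02), Aspn 0.292 and 0.372 (0.27) and Vcan 0.133 and 0.244 (0.56). Fmod had 0.00752 and 0.0744 (0.70) and Omd 0.0107 and 0.0676 (0.60).

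With the cluster shares of the mock library applied to both, the ligated Dcn mean was 5.13, below the mock value (-0.47). Bgn then had 2.91 and a difference of 0.90, under the rule. Lum was at 1.13 (-0.10), Ogn at 0.417 (-0.04), Aspn at 0.279 (-0.05) and Vcan at 0.0980 (-0.23). Fmod, Prelp and Omd kept differences above 0, at 0.34, 0.27 and 0.23. None of the 9 was past the rule at this mix, where 2.87% of genes were higher and 2.47% lower. Fewer or more cells of a type and less or more RNA per cell cannot be told apart in a library mean that keeps its own mix.

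**Figure D4:**
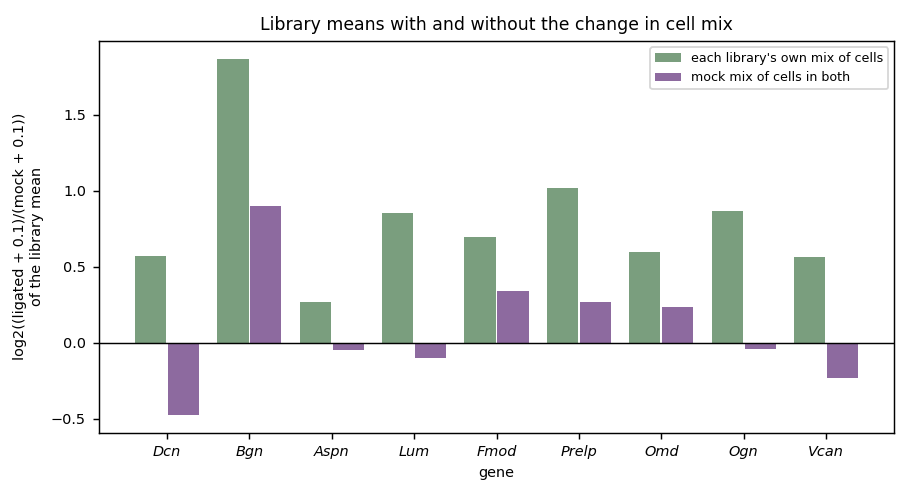
Log2 difference of the library means (y axis, 0.1 added to both) for the 9 genes, with each library's own mix of cells (green) and with the mock mix in both (purple). All 9 green bars are above 0, and the purple bars of Dcn, Aspn, Lum, Ogn and Vcan are below 0.

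Other genes of matrix proteoglycan biology were read from 7 lists in the fibroblast-like cluster. Among other leucine-rich proteoglycans 3 of 12 listed genes reached the minimum. Lrrc17 was lower (0.765 in the mock and 0.122 in the ligated library, -1.96), while Podn had 2.43 and 3.45 and Ecm2 1.07 and 1.20. Of the other large and hyaluronan-binding genes 3 of 16 reached the minimum and 1 was lower, Cd44, the hyaluronan receptor (0.728 and 0.305, -1.03), and 4 of the 16 had values in 1 library only. Itih5 stood at 14.4 and 8.64 (-0.73). Of 12 basement membrane and cell surface proteoglycans reaching the minimum, 4 were lower and 0 higher, with a list median of -0.65 against -0.06 over all genes. These were Col18a1, the source of endostatin (2.21 and 0.392, -2.23), Spock2 (1.24 and 0.294, -1.77), Prg4, which encodes lubricin (0.541 and 0.106, -1.63), and Gpc3 (0.677 and 0.155, -1.61). Hspg2, encoding perlecan, had 8.57 and 4.92 (-0.79).

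Genes of glycosaminoglycan chain synthesis had 1 of 12 past the rule, B4galt1 (1.55 and 0.641, -1.16), and a list median of -0.38. Among partner collagens and crosslinking genes, 23 reached the minimum, 3 were higher and 3 lower, and the median was -0.02. The higher ones were Fbn2 (0.169 and 1.15, 2.22), Postn, encoding periostin (1.23 and 4.70, 1.85), and Lox, the lysyl oxidase that crosslinks collagen (1.41 and 3.39, 1.21). The lower ones were Tnxb (3.44 and 0.744, -2.07), Fbln2 (6.92 and 2.34, -1.53) and the fibronectin gene Fn1 (3.11 and 1.39, -1.11). Col3a1 was at 48.6 and 54.9, and Sparc at 35.0 and 64.7 (0.89). Of 13 proteoglycan proteases and their inhibitors, Timp1 was higher (1.20 and 6.58, 2.37), and Pcolce2 (0.807 and 0.154, -1.83) and Mmp2 (12.4 and 5.82, -1.08) were lower. Among 9 receptors and ligands of these proteoglycans, 1 was lower, Bmp4 (2.19 and 0.581, -1.75). The last 2 lists each leave out 2 genes with values in 1 library only. Those of the receptors and ligands are Ccn2 (0 and 3.34) and Ccn4 (0 and 1.06), which were at 0 over the whole mock library. Whether the mock library listed these genes under another name was not checked. Their 0 is therefore not read as a lack of expression.

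In the mural-like cluster 14 partner collagen and crosslinking genes reached the minimum, with 0 higher and 0 lower and a median of -0.77 against -0.07 over all genes. Col18a1 (0.695 and 0.280, -1.06) and Sdc1 (3.29 and 1.30, -1.28) were the lower ones of 10 basement membrane and surface proteoglycans. Timp3 was lower among 5 proteases and inhibitors (22.6 and 10.4, -1.11). Among 7 receptors and ligands Kdr (2.55 and 1.18, -1.05), Itgb1 (14.2 and 6.11, -1.20) and Bmp2 (0.661 and 0.0970, -1.95) were lower, beside the 4.50% of all genes given above. In subset cluster 2 Itgb1 and Bmp2 were lower past the rule and Kdr was not (0.139 and 0.230, 0.47). Col18a1 and Sdc1 were lower past it there too, while Timp3 fell short (-0.997). Of 14 partner collagen and crosslinking genes 2 were lower in that cluster, Loxl2 (-1.01) and Postn (-1.12), beside 4.26% of all genes. Kdr is also one of the 11 endothelial markers, which summed to 22.2 in the mock and 16.3 in the ligated cells of the mural-like cluster. The other 3 lists had 1, 1 and 5 genes reaching the minimum there, with 0 past the rule.

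Likeness of pattern was measured as Pearson correlation of log2(value + 0.1) over 24 columns, 12 clusters in each of 2 libraries, which share their library and their cells and are not independent. Among 4607 eligible genes outside the 9, Smoc2 was most like both Dcn (0.95) and Lum (0.98). The next were Colec12 and Cxcl14 for Dcn, and Mfap4 and Cpxm1 for Lum. Bgn was most like Serping1 (0.95), Pcolce and Igfbp5. Fmod was most like Fbn2 (0.94), Epha3 and Thbs4, and Omd most like Svep1 (0.97), Srpx2 and Kcnk2. Prelp had the lowest top value, 0.90 with Plekha6, and Lox was also among its 3 most like genes. Ogn was most like Col6a3 (0.95), Gpr153 and Col6a2. Aspn was most like Lin7a (0.99), Ednra and Foxs1. Among the 3 genes most like Vcan were Fndc1 (0.97) and Gpm6b (0.97). Between the 9 genes the correlation was 0.95 for Dcn with Lum and 0.91 for Fmod with Omd, and 0.24 for Aspn with Vcan.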

How the data were processed

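Single-cell RNA of 1 mock and 1 ligated library was read from tables deposited by the authors. Per the file headers these give mean expression per cluster, and from the values they are linear mean UMIs per 10000 UMIs of a cell, a unit other than counts, since the columns sum to 10000. Clusters and cells were defined by the authors. The submitters' processing notes name Cell Ranger 6.0.1, Seurat and mm10; their settings and any doublet removal are not given in the sources used here. Doublets were not called here, and cell barcodes shared by the libraries could not be counted from cluster means.

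The 9 genes, lists and markers were chosen with earlier results of these data known. Cell numbers were recovered from the weight of each library in the joint mean of a cluster, fitted over all genes (Python 3.11.15, numpy 2.4.6, pandas 2.3.3). Depths were recovered from the means of genes above 0 in 1 library only, taking such a mean as 1 UMI in 1 cell, which was not checked. The recovery of cell numbers and the size rule were tested on simulated data. Gene names turned into dates (21) were restored from the joint table. The difference is log2((ligated + 0.1)/(mock + 0.1)). The size rule asks for a higher value of at least 0.5 and a difference of at least 1 in clusters with at least 50 cells per library. Names ending in -like rest on 17 lists of marker genes. Named genes are the 9, list genes past the rule in the fibroblast-like or mural-like cluster or among the 3 highest library means of their list, and the 3 genes most like each of the 9, of which 2 are not reported here. Alternatives changed the pseudocount, the minimum, the fold, the centring, the cell mix and the clustering, or subtracted from each cluster a share of the library mean profile set by markers of other cell types. With 1 library per group no p-value, standard deviation or interval of a mean could be given, and the precision of a mean is limited by its number of cells. Genes were placed with the GENCODE annotation of GRCm38, and promoter windows come from RefSeq.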

Additional observations from a re-analysis of the deposited data

Results flagged for a closer look

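Among genes past the size rule in at least one of the 2 cell types, the difference between the libraries had opposite signs in fibroblast-like and mural-like cells for Dcn, Fmod and Ogn. Dcn had a log2 difference of -0.70 in fibroblast-like and 1.61 in mural-like cells, so that the first minus the second is -2.32. Subtracting a share of the library profile took the ligated mural-like Dcn value to 0 and its difference to -2.66. The share subtracted was 1.28% of the library mean in the mock and 21.2% in the ligated library. In the subset's mural-like cluster Dcn stayed higher in the ligated library after the subtraction (0.85). The sign after subtraction therefore differs between the clusterings. For Fmod the differences were 1.92 and -0.21 (2.13 apart), although Fmod stayed under 0.5 in both libraries of the mural-like cluster. For Ogn they were 0.16 and -3.28 (3.44 apart). Lum (-0.41 and 2.01), Aspn (0.83 and -0.56) and Bgn (0.89 and -0.03) had opposite signs as well, with neither value past the rule. With 1 library per condition these differences between cell types were not tested.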

How the results depend on the processing

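Of 423 alternative values for single genes and clusters, 344 kept their direction (or were 0 throughout) and their side of the rule, 19 lost the rule and 3 gained it. A further 55, all under the rule, went to 0 or changed sign, and 2 past the rule reversed. Most of the 423 are for genes under the rule in their cluster, with no call to lose. The 344 therefore says little on how firm the calls are. The 19 and the 2 all fall on the fewer genes past the rule. The reversed ones were Dcn in the mural-like cluster (-2.66) and Bgn in the ductal-like cluster (-1.13), both after a share of the library mean profile was subtracted; the subtraction takes the ligated Dcn and Ogn values of the mural-like cluster to 0. In the subset's mural-like cluster it left Dcn at 0.85. In the fibroblast-like cluster 51 of 54 values kept both, and Aspn gained the rule in the subset clustering (1.29). The count of genes past the rule in that cluster, 2, became 0 with a minimum of 2, 5 with a 1.5-fold difference and 0 with a pseudocount of 1, because Fmod and Omd lie below 1 in both libraries. In the mural-like cluster the count of 2 became 1 with a pseudocount of 1, where Dcn was at 0.94. Apart from the subtraction, which could only lower it (-4.76), the Ogn difference there ran from -3.79 to -1.61. With the mock mix of cells the library mean of Bgn differed by 0.90 in place of 1.87, and with equal weight for every cluster by 1.04. No paired analysis was possible because each condition has 1 library. Depth limits the low genes: 3 UMIs at median depth are worth 0.0287 in the mock mean of the mural-like cluster.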
